A study of Mus musculus with 6 samples.

Results

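The 10 genes described here are regulators of the CREB pathway and phosphodiesterases that degrade cyclic AMP (cAMP). They were taken by gene symbol: Creb1, Crem, Sik1, Gem, Ppargc1a, Cited2, Pde4a, Pde4b, Pde4d and Pde10a. All 10 were found among the 24391 gene rows of the count tables, and all 10 passed the filter on low counts, as did 14163 genes in all. RNA sequencing measured 6 cultures of GT1-7, an immortalised mouse hypothalamic cell line that resembles neurons secreting gonadotropin-releasing hormone (GnRH). The AVP group was 3 wild-type cultures given arginine vasopressin (AVP), a hypothalamic peptide hormone, at 200 pg/mL for 6 h. The control group was 3 wild-type cultures that 1 label calls vehicle controls and another untreated. Cultures of both groups had been kept without serum for 12 h beforehand. All come from a single line, so replicates of different animals are not part of the design.

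Cyclic AMP is made by adenylyl cyclases and activates protein kinase A, which phosphorylates the transcription factor CREB at promoters that carry a cAMP response element (CRE). CREB then recruits the acetyltransferases CBP and p300, and the CRTC coactivators add to its activity once they enter the nucleus. The pathway is known for its own brakes: phosphodiesterases break cAMP down, inducible forms of CREM repress CREB targets, and SIK1 holds CRTC proteins in the cytoplasm. Of the vasopressin receptors, the V2 type is known to couple to Gs and cAMP, and the V1 types to Gq and calcium.

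Total counts per library were 36257545, 37418318 and 35597040 in AVP replicates 1, 2 and 3 and 36826004, 35986533 and 34908867 in control replicates 1, 2 and 3. Control replicate 1 held 0.995% of its counts on the ribosomal precursor Rn45s, a share of 0.211 to 0.245% was seen with AVP and the lowest control was at 0.139%. Genes with at least 1 count numbered 16674 to 16739 with AVP and 16166 to 16403 in controls. Malat1, a nuclear RNA, was at 1499 to 1724 CPM (counts scaled to library size) in AVP libraries and at 499 to 1106 CPM in control libraries. Of 8 neuronal or neuroendocrine markers, 6 were above 1 CPM in every library, while Gnrh1 had 11 to 26 counts per library and Stmn2 0 to 1. The 8 summed to 1620 to 1714 CPM with AVP and 1804 to 1930 CPM in controls, but single markers differed in direction. Syp (694.8 to 754.8 CPM with AVP, 891.4 to 1006 CPM in controls) and Chgb (339.8 to 391.5 and 445.8 to 472.1 CPM) were lower in every AVP library. Tubb3 (240.6 to 268.9 CPM with AVP, 167.4 to 186.2 CPM in controls) and Map2 (150.3 to 170.3 and 132.2 to 139 CPM) were higher. The groups overlapped for Snap25, Syt1, Gnrh1 and Stmn2. The summed oligodendrocyte markers were at 17.3 to 19.3 CPM with AVP and 47.3 to 52.5 CPM in controls, with 2 of 4 above 1 CPM and Mog and Mag at 0 counts throughout, and the summed fibroblast markers at 8.58 to 9.89 CPM with AVP and 20.1 to 23.8 CPM in controls, with 2 of 4 above 1 CPM and Col1a1 at 0 to 5 counts. Astrocyte markers summed to 1.68 to 2.32 CPM with AVP and 1.03 to 1.17 CPM in controls, and microglia markers to 0.0281 to 0.193 CPM with AVP and 0.0278 to 0.163 CPM in controls. Endothelial markers summed to 248 to 279 CPM with AVP and 297 to 329 CPM in controls, nearly all of it Kdr, with Cldn5 at 0 counts. With Rn45s left out of the table, the 10 genes kept their calls (7 higher and 2 lower), and without control replicate 1 they kept all but that of Creb1 (7 higher and 1 lower). Whether the differences in detected genes, Malat1 and markers have a part in the results was not tested.

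With AVP, 7 of the 10 genes rose, 2 fell and 1 did not pass the threshold. The largest change was in Pde4a, which rose 5.57-fold, followed by Gem, a small GTPase gene that rose 2.54-fold, Pde4b, which rose 2.02-fold, and Crem, which rose 1.70-fold. Sik1, Ppargc1a and Pde10a rose by smaller amounts, Cited2 and Creb1 were slightly lower, and Pde4d was near its control level. A gene was called at an adjusted p under 0.05 in edgeR's quasi-likelihood test with Benjamini-Hochberg adjustment over all tested genes. These calls stand against a very broad background, since 57.5% of all tested genes were called, 28.7% higher and 28.8% lower. AVP and control libraries were fully separated for 8 of the 10 genes, and such separation held for 63.4% of all tested genes, so a count of 8 says little about these genes. When the test asked for a change of more than 1.2-fold, 5 of the 10 were called higher (Pde4a, Gem, Pde4b, Crem and Sik1) and 0 lower, against 15.5% higher and 16.5% lower among all tested genes. The median log2 fold change of the 10 genes was 0.46, beside 0.01 over all tested genes. The 10 genes were chosen with earlier results of these data known, so nothing is read from these comparisons with all tested genes. In these bulk samples a change in the number of expressing cells and a change in RNA per cell cannot be told apart. This holds for genes that rose and for genes that fell.

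**Figure D1:**
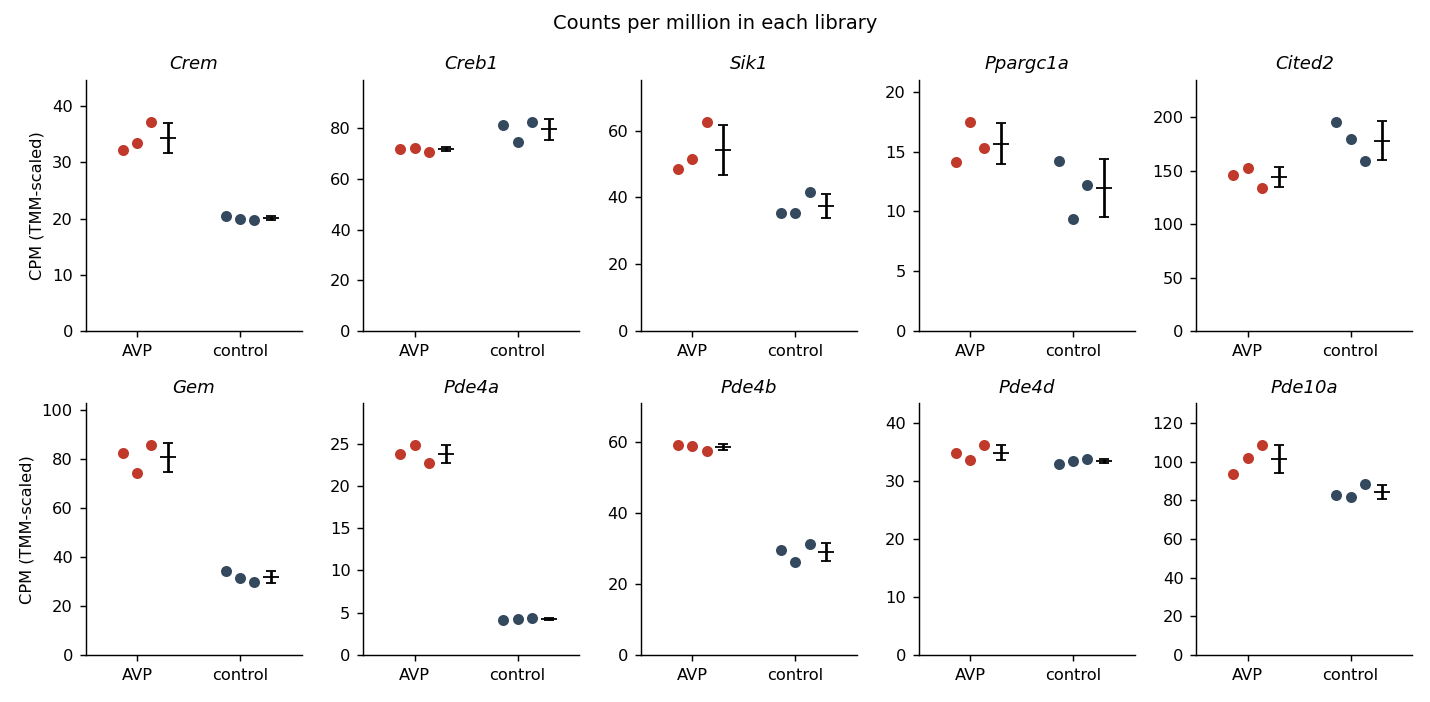
CPM, scaled by TMM factors, of the 10 genes in each of the 6 libraries, with AVP on the left and control on the right of each panel. Points are libraries and bars are the mean and SD of 3; Pde4a lies between 22.7 and 24.8 CPM with AVP and between 4.18 and 4.33 CPM in controls, whereas the Pde4d groups overlap and the Ppargc1a groups overlap.

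Promoter sequences are shown because CREB binds DNA at the CRE. RefSeq promoter windows (GRCm38.p6) each reach from 250 bases before to 50 after a transcription start. They were available for 7 of the 10 genes, 13 windows in all, and not for Crem, Sik1 and Gem. The full CRE, TGACGTCA, reads the same on both strands and was in 0 of the 13 windows, and 1.79% of all 32851 windows hold it. The shorter CRE motif TGACG, searched on both strands (CGTCA on the other) and also part of the full CRE, was in 3 windows of 3 genes. That is 23.1% of the 13 windows and 42.9% of the 7 genes, beside 20.8% of all windows and 23.0% of the 27025 genes with a window. With so few windows, nothing is read from either share. The motif lay 50 bases before a start of Pde4a, 34 bases before a start of Pde4b and 49 bases before the start of Ppargc1a. The motif was in neither of the other 2 windows of Pde4a, in none of the other 3 of Pde4b and in none of those of Creb1, Cited2, Pde4d and Pde10a, so genes that rose are found with and without it. Several of these genes have more than 1 start, and counts per gene do not show which start was used. The RefSeq windows of Pde4d and Pde10a all lie inside the gene as GENCODE draws it. So do the Pde4a and Pde4b windows with the motif, while the Pde4a window at the GENCODE start of the gene was without it. The 3 windows with the motif are printed below, followed by windows without it of Pde10a, which rose, and of Pde4d, which did not pass the threshold; capitals mark the motif, and each sequence runs 5′ to 3′ on the gene's strand.
Pde4a, plus strand, chr9:21183851-21184150: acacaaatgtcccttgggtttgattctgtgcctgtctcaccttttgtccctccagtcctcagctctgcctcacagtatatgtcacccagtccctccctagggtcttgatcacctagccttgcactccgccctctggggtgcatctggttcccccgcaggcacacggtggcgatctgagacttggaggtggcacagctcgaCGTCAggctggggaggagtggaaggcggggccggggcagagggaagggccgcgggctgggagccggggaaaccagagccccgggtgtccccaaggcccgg
Pde4b, plus strand, chr4:102421305-102421604: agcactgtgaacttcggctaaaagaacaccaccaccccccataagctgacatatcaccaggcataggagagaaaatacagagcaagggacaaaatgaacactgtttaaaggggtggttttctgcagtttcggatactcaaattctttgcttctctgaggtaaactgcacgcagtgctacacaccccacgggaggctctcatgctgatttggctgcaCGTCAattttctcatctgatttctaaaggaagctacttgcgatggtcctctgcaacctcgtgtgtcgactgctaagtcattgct
Ppargc1a, minus strand, chr5:51567676-51567975: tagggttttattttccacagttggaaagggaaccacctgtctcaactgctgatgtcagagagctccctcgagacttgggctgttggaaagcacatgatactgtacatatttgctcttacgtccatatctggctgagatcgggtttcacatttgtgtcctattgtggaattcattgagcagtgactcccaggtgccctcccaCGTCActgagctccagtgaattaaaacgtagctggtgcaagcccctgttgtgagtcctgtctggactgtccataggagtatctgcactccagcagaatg
Pde10a, plus strand, chr17:8801495-8801794: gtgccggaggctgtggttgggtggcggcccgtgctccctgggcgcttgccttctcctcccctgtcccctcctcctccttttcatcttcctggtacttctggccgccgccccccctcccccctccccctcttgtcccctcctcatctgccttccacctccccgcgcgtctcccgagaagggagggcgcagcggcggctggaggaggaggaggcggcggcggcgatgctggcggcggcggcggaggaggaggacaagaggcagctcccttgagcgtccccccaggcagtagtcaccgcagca
Pde4d, plus strand, chr13:108653927-108654226: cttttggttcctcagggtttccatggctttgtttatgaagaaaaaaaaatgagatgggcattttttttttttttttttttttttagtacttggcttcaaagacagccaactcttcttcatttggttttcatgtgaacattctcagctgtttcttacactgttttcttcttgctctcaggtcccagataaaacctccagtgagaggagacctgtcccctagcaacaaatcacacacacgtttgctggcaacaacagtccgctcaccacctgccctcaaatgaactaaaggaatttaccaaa
These letters are a description of the windows, and no binding was measured. The bases G and C make up 64% (Pde4a), 47% (Pde4b), 48.7% (Ppargc1a), 71.3% (Pde10a) and 39.7% (Pde4d) of the windows.

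Among the PDE4 enzymes, which are specific for cAMP and are the targets of rolipram, the 3 expressed genes responded very differently. Pde4a (GRCm38 chromosome 9, 21165714 to 21213248, plus strand, GENCODE M21) was at 23.8, 24.8 and 22.7 CPM in the AVP libraries and at 4.18, 4.30 and 4.33 CPM in the control libraries, from 818 to 939 counts with AVP and 150 to 153 counts in controls. Every AVP value was far above every control value, and the spread within each group was small. The log2 fold change was 2.48 (SE 0.11, edgeR adjusted p = 4.35e-11), which ranked 98 of 14163 from the highest.

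Pde4b (chromosome 4, 102087543 to 102607259, plus strand) was at 59.2, 59.0 and 57.6 CPM with AVP and at 29.7, 26.2 and 31.3 CPM in controls. The groups were well apart, and the AVP libraries differed from each other by less than the controls did (58.6 ± 0.864 and 29.1 ± 2.62 CPM, SD, n = 3). Its log2 fold change was 1.01 (SE 0.08, edgeR adjusted p = 2.31e-08). Pde4d (chromosome 13, 108449948 to 109953461, plus strand) was at 34.8, 33.6 and 36.1 CPM with AVP and at 32.9, 33.5 and 33.7 CPM in controls. The lowest AVP value lay below the highest control value, and the difference did not pass the threshold (log2 fold change 0.06, SE 0.07, 95% interval -0.09 to 0.22, edgeR adjusted p = 0.490). That interval covers small changes in either direction. Pde4c, the remaining gene of the family, had 2 counts over the AVP libraries and 0 over the controls and was not tested.

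The unequal response within the PDE4 family was compared inside each library, where library scaling cancels. The log2 ratio of Pde4b to Pde4d counts was 0.77, 0.81 and 0.68 with AVP and -0.15, -0.36 and -0.11 in controls, a difference of 0.96. The ratio of Pde4d to Pde4a differed by -2.42 between AVP and control, and that of Pde4b to Pde4a by -1.46. In each of these 3 ratios, and in that of Crem to Creb1 given below, the AVP and control libraries did not overlap. The exact two-sided permutation p was 0.1 for each of the 4 ratios, also after Benjamini-Hochberg adjustment over the 4, and 0.1 is the smallest p that 3 against 3 allows, so none can pass a threshold of 0.05.

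Levels of different genes were compared per length, as CPM per kilobase of merged exons. The merged length counts the exons of all annotated isoforms, so it lowers the level of a gene whose short isoforms are the ones expressed. On that scale Pde4a averaged 3.11 with AVP and 0.558 in controls, Pde4b 5.55 with AVP and 2.75 in controls, and Pde4d 2.90 with AVP and 2.78 in controls. Of the summed PDE4 level, Pde4a made up 26.9 ± 0.961% with AVP and 9.17 ± 0.413% in controls (SD, n = 3). Pde4d made up 25.1 ± 1.13% with AVP and 45.7 ± 1.89% in controls, and Pde4b 48.0 ± 0.271% with AVP and 45.1 ± 2.30% in controls. The order by level in controls put Pde4b and Pde4d side by side, within their spread, with Pde4a well below both. With AVP, Pde4b stood above the other two, and Pde4a (2.97 to 3.24 per library) and Pde4d (2.80 to 3.01) overlapped. The summed PDE4 level was 11.4 to 11.6 CPM per kilobase with AVP and 5.83 to 6.33 in controls, a ratio of means of 1.90.

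Pde10a, a phosphodiesterase gene known for high expression in the striatum whose enzyme degrades both cAMP and cGMP, rose slightly. The gene (chromosome 17, 8525372 to 8986648, plus strand) was at 93.6, 102 and 108 CPM with AVP and at 82.8, 81.8 and 88.4 CPM in controls. All AVP values were above all control values, though the closest were only a few CPM apart. A log2 fold change of 0.26 (SE 0.06, edgeR adjusted p = 0.00228) was called, but it did not pass the test against a 1.2-fold change (adjusted p = 0.467). On the per-kilobase scale it averaged 7.88 with AVP and 6.56 in controls, above each PDE4 gene in both groups.

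**Figure D2:**
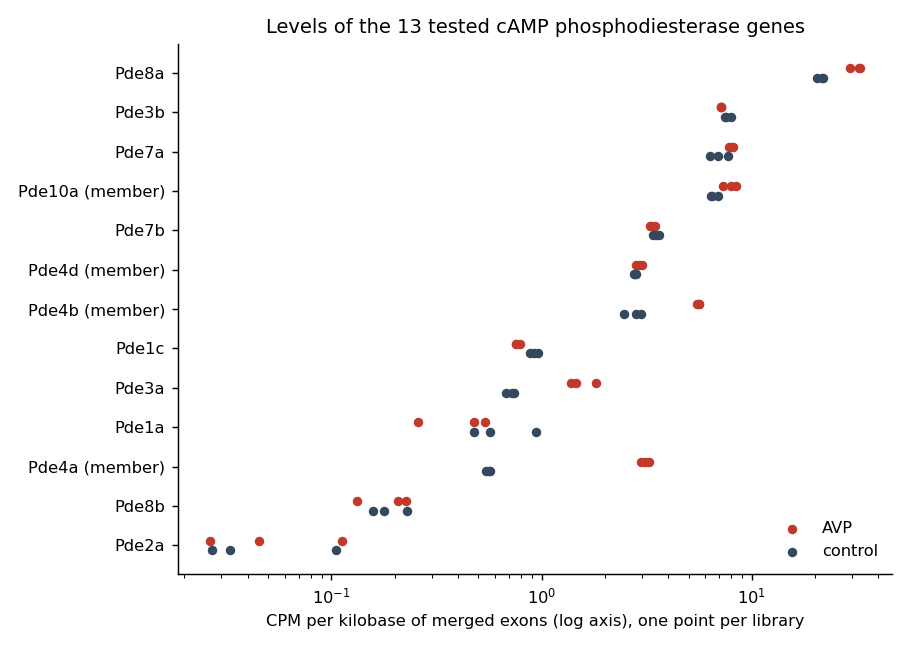
Levels of the 13 tested cAMP phosphodiesterase genes in CPM per kilobase of merged exons on a log axis, with 1 point per library and AVP drawn above control for each gene. Pde8a is the highest at a mean of 31.4 with AVP and 21.2 in controls, and Pde4a shows the widest gap between the groups, 3.11 with AVP and 0.558 in controls.

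The other phosphodiesterase genes put these changes in context. Of 16 genes for cAMP-degrading enzymes, 13 were tested, 6 rose, 1 fell and 6 did not pass, with a median log2 fold change of 0.16. Outside the 4 genes above, 3 of 9 rose and 1 fell. Pde3a, whose enzyme is inhibited by cGMP, was at 19.8 ± 2.93 CPM with AVP and 9.09 ± 0.413 CPM in controls (SD, n = 3; log2 fold change 1.12, SE 0.12, edgeR adjusted p = 9.97e-07). Pde8a, a high-affinity cAMP phosphodiesterase, was at 127 ± 7.92 CPM with AVP and 85.9 ± 3.30 CPM in controls (log2 fold change 0.56, edgeR adjusted p = 1.07e-06). Per kilobase Pde8a was the most abundant of the 13, at 43.4% of their summed level with AVP and 38.9% in controls, while Pde4a, Pde4b and Pde4d made up 4.30%, 7.68% and 4.01% with AVP and 1.02%, 5.05% and 5.10% in controls. The sum over the 13 genes was 70.1 to 73.9 CPM per kilobase with AVP and 52.6 to 56.3 in controls. Calls for Pde7a, which rose, and Pde1c, which fell, were small (log2 fold changes 0.20 and -0.26) and both were lost without AVP replicate 2, AVP replicate 3 or control replicate 2, which left 5 genes of the list higher and 0 lower. With library size alone the call of Pde1c was lost (6 higher and 0 lower).

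Genes for enzymes that degrade cGMP moved in both directions. Pde5a, the target of sildenafil, fell to 73.3 ± 4.24 CPM with AVP, against 192 ± 11.5 CPM in controls (log2 fold change -1.39, SE 0.06, edgeR adjusted p = 4.83e-11). Pde9a, also specific for cGMP, rose to 9.90 ± 0.779 CPM with AVP, against 3.47 ± 0.319 CPM in controls (log2 fold change 1.51, edgeR adjusted p = 3.13e-07). Pde6d, which encodes a prenyl-binding protein named for its copurification with a photoreceptor phosphodiesterase, fell by 0.44 on the log2 scale, so 1 of the 4 tested genes of this list rose and 2 fell.

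**Figure D3:**
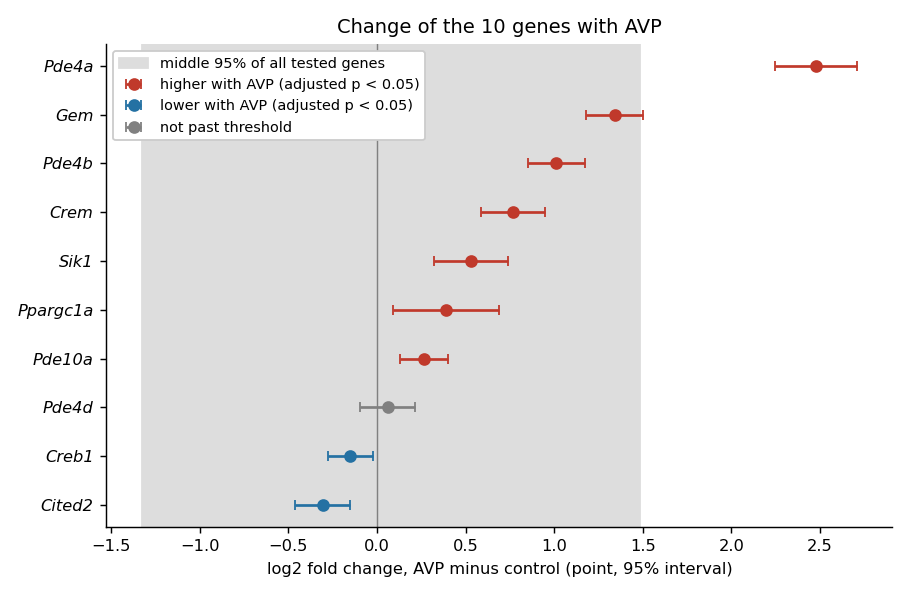
Log2 fold change of each of the 10 genes, AVP minus control, with its 95% interval from the edgeR fit; the shaded band holds the middle 95% of all 14163 tested genes, from -1.33 to 1.49. Pde4a at 2.48 lies outside the band, the other 9 genes lie inside it, and the interval of Pde4d spans 0.

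The 6 CREB pathway regulators comprised 4 that rose and 2 that fell. Creb1 (chromosome 1, 64532645 to 64604548, plus strand) encodes CREB, whose activity is set mainly by phosphorylation, which was not measured. Its values were 72.0, 72.2 and 70.7 CPM with AVP and 81.1, 74.8 and 82.6 CPM in controls. The AVP values were all lower, but the nearest control was close to them. The log2 fold change was -0.15 (SE 0.06, edgeR adjusted p = 0.0428), a fold of 0.901. The call was lost with library size alone as the scaling (-0.11, adjusted p = 0.117) and without AVP replicate 1 (0.0815), AVP replicate 2 (0.0885), AVP replicate 3 (0.0988), control replicate 1 (0.0971) or control replicate 3 (0.0971).

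Crem (chromosome 18, 3266048 to 3337748, minus strand) encodes activators and repressors, among them ICER, a short repressor made from an internal promoter that cAMP induces. It was at 32.1, 33.4 and 37.2 CPM with AVP and at 20.5, 20.0 and 19.8 CPM in controls. Each AVP library was well above the tight control group. It rose by 0.77 on the log2 scale (SE 0.08, edgeR adjusted p = 1.57e-06), and counts per gene do not separate ICER from the other forms. The noncoding gene Gm6225 lies on the opposite strand and shares 472 exon bases with Crem; it had 18 to 37 counts with AVP and 17 to 30 in controls, against 1180 to 1339 for Crem with AVP and 687 to 742 in controls, and as the use of strand in the counting is not given, a small share of the reads could belong to either gene.

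Within a library, the log2 ratio of Crem to Creb1 was -1.16, -1.11 and -0.93 with AVP and -1.98, -1.90 and -2.06 in controls. The ratio was thus higher in every AVP library, by 0.91 on average. Per kilobase, Crem averaged 5.81 with AVP and 3.41 in controls, and Creb1 5.21 with AVP and 5.78 in controls. The order of these levels differed between the groups: Crem lay above Creb1 in all AVP libraries (5.45 to 6.31 for Crem and 5.15 to 5.26 for Creb1) and below it in all controls (3.36 to 3.48 for Crem and 5.44 to 6.01 for Creb1). That order rests on the merged exon lengths of 5895 bases for Crem and 13742 for Creb1.

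Sik1 (chromosome 17, 31844250 to 31855804, minus strand), the gene of a salt-inducible kinase that cAMP induces and that keeps CRTC coactivators inactive, was at 48.4, 51.4 and 62.7 CPM with AVP and at 35.5, 35.4 and 41.5 CPM in controls. AVP replicate 3 was the highest, yet the lowest AVP value was above the highest control. The log2 fold change was 0.53 (SE 0.10, edgeR adjusted p = 0.00029), and it was 0.41 without AVP replicate 3 (adjusted p = 0.0012). The other genes of the kinase family, Sik2 and Sik3, also rose. Sik2 was at 23.1 ± 1.98 CPM with AVP and 12.8 ± 0.276 CPM in controls (SD, n = 3; log2 fold change 0.85, edgeR adjusted p = 2.53e-06). Sik3 was at 142 ± 7.84 CPM with AVP and 117 ± 0.616 CPM in controls (0.28, adjusted p = 0.000405). Stk11, which encodes LKB1, the kinase that activates the family, fell to 87.4 ± 4.28 CPM with AVP, against 115 ± 3.88 CPM in controls (-0.40, adjusted p = 2.55e-05).

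Gem (chromosome 4, 11704457 to 11714752, plus strand) encodes a small GTPase of the RGK family that inhibits voltage-gated calcium channels. It was at 82.5, 74.0 and 85.4 CPM with AVP and at 34.2, 31.5 and 29.7 CPM in controls. The groups were far apart, and each group's own spread was small beside the gap. The log2 fold change was 1.34 (SE 0.08, edgeR adjusted p = 8.24e-10). Per kilobase it averaged 38.3 with AVP and 15.1 in controls, lower only than Cited2 among the 10 genes. Its relatives were scarce: Rem2 averaged 2.43 CPM with AVP and 2.98 CPM in controls, Rem1 averaged 0.189 CPM with AVP and 0.263 CPM in controls, and neither passed the threshold, while Rrad was not tested. Without control replicate 3, Rem2 was called lower.

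Ppargc1a (chromosome 5, 51454250 to 51567726, minus strand) encodes PGC-1alpha, a coactivator of mitochondrial biogenesis that CREB is known to induce in liver. It was at 14.1, 17.5 and 15.3 CPM with AVP and at 14.2, 9.37 and 12.2 CPM in controls. Control replicate 1 lay just above the lowest AVP value, so the groups overlapped. The log2 fold change was 0.39 (SE 0.14, edgeR adjusted p = 0.0279). The call was lost without AVP replicate 2 (0.30, adjusted p = 0.125), AVP replicate 3 (0.41, adjusted p = 0.0560) or control replicate 2 (0.24, adjusted p = 0.151). Without control replicate 1, the library with the high Rn45s share, it was 0.53 (adjusted p = 0.0023). Of the genes of the PGC-1 family and its partners, 2 of 7 rose, 1 fell and 4 did not pass, with a median of 0.18. These counts became 1 higher and 0 lower without AVP replicate 2 or 3, 1 and 1 without control replicate 2, 3 and 0 without control replicate 1 and 2 and 0 without control replicate 3 or with library size alone. The other riser was Pprc1, which encodes a PGC-1 related coactivator and was at 230 ± 10.2 CPM with AVP and 152 ± 8.77 CPM in controls (SD, n = 3; 0.60, adjusted p = 2.91e-07). Nrf1, a regulator of nuclear genes for mitochondrial proteins, was the 1 that fell (-0.26, adjusted p = 0.0279), and its groups overlapped. The Nrf1 call was lost with library size alone (adjusted p = 0.0539). It was also lost without AVP replicate 2 (0.0706), AVP replicate 3 (0.127), control replicate 1 (0.0677) or control replicate 3 (0.0568). Tfam, the mitochondrial transcription factor gene, and Esrra, which encodes a nuclear receptor partner of PGC-1alpha, did not pass the threshold (-0.12 and 0.18).

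Cited2 (chromosome 10, 17723218 to 17725674, plus strand) encodes a protein without DNA binding of its own that occupies the domain of CBP and p300 to which HIF-1alpha binds. It was at 146, 153 and 134 CPM with AVP and at 196, 179 and 160 CPM in controls, and per kilobase it was the most abundant of the 10, at 58.6 with AVP and 72.6 in controls. Every AVP value was below every control value, with a wide spread among the controls. It fell by 0.31 on the log2 scale (SE 0.07, edgeR adjusted p = 0.00209), and by 0.24 without control replicate 1 (adjusted p = 0.0057). Of its relatives, Cited4 fell to 7.43 ± 0.441 CPM with AVP, against 19.2 ± 4.0 CPM in controls (log2 fold change -1.37, edgeR adjusted p = 8.80e-07). Cited1 rose to 3.67 ± 0.739 CPM with AVP, against 1.81 ± 0.232 CPM in controls (1.01, adjusted p = 0.00108).

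**Figure D4:**
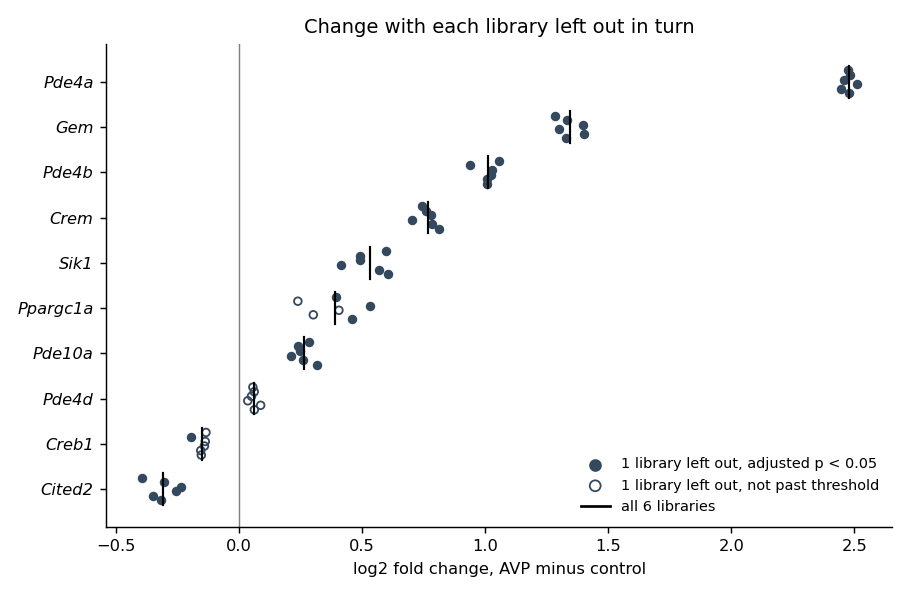
Log2 fold change of the 10 genes, AVP minus control, with each of the 6 libraries left out in turn; filled points passed the threshold, open points did not, and the line is the value from all 6 libraries. Creb1 passed in 1 of its 6 points and Ppargc1a in 3, while Pde4a stayed between 2.45 and 2.51.

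The partners of CREB moved in opposite directions. Of 13 tested genes for CREB family factors and coactivators, 4 rose, 6 fell and 3 did not pass, with a median of -0.17. These counts became 4 higher and 4 lower with library size alone, and 3 and 4 without AVP replicate 1. They were 3 and 5 without AVP replicate 3 or control replicate 2. Leaving out control replicate 1 gave 3 and 6, and leaving out control replicate 3 gave 4 and 5. The coactivators CBP and p300 were higher: Crebbp was at 60.7 ± 5.72 CPM with AVP and 39.9 ± 2.14 CPM in controls (SD, n = 3; log2 fold change 0.61, edgeR adjusted p = 7.02e-06), and Ep300 at 138 ± 15.5 CPM with AVP and 103 ± 3.73 CPM in controls (0.43, adjusted p = 0.000139). Crtc3 fell to 32.3 ± 0.634 CPM with AVP, against 44.8 ± 0.830 CPM in controls (-0.47, adjusted p = 2.82e-05), and Crtc2 did not pass (-0.12). Crtc1 fell slightly (-0.19, adjusted p = 0.0178), and its groups overlapped. The Crtc1 call was lost with library size alone (adjusted p = 0.0504). It was also lost without AVP replicate 1 (0.0698), control replicate 2 (0.0603) or control replicate 3 (0.0537). Atf1, the closest relative of Creb1 and Crem, fell to 63.0 ± 3.01 CPM with AVP, against 74.7 ± 3.07 CPM in controls (-0.25, adjusted p = 0.00347). Creb3 and Creb3l2, which also fell, encode factors anchored in the membrane of the endoplasmic reticulum or Golgi and are not activated by cAMP in the way of CREB.

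Upstream of CREB, genes for the making and sensing of cAMP showed no single direction. Of 7 tested adenylyl cyclase genes, 3 rose, 1 fell and 3 did not pass (median 0.05). Without AVP replicate 2 it was 2 higher and 2 lower, and without AVP replicate 3 or control replicate 2 it was 2 and 1. Adcy1, a cyclase stimulated by calcium and calmodulin, rose to 62.2 ± 4.66 CPM with AVP, against 23.6 ± 1.76 CPM in controls (log2 fold change 1.40, SE 0.08, edgeR adjusted p = 1.07e-09). Adcy3 rose by 0.55 and Adcy7 fell by 0.38 on the log2 scale. Adcy6 rose by 0.32 (edgeR adjusted p = 0.0457), with overlapping groups. The Adcy6 call was lost without AVP replicate 2, AVP replicate 3, control replicate 1 or control replicate 2. Of the 7 G protein alpha genes, 3 rose, 1 fell and 3 did not pass (median 0.12). The inhibitory subunit genes Gnai1, Gnai2 and Gnai3 rose by 0.64, 0.25 and 0.35, Gnao1 fell by 0.59, and Gnas, which encodes the stimulatory subunit Gs-alpha, was at 1041 ± 8.30 CPM with AVP and 1087 ± 58.1 CPM in controls and did not pass (edgeR adjusted p = 0.309).

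Among 9 genes for protein kinase A subunits and inhibitors, 1 rose, 5 fell and 3 did not pass, with a median of -0.24. Prkar1a, a regulatory subunit gene, made it 2 higher without AVP replicate 2 or with library size alone. Without AVP replicate 3 or control replicate 2 it was 1 higher and 4 lower. There the inhibitor gene Pkig (-0.24 over all libraries, with overlapping groups) lost its call. Both catalytic subunit genes fell: Prkaca was at 197 ± 18.3 CPM with AVP and 235 ± 4.51 CPM in controls (SD, n = 3; log2 fold change -0.25, edgeR adjusted p = 0.00271), and Prkacb at 116 ± 4.22 CPM with AVP and 148 ± 13.4 CPM in controls (-0.36, adjusted p = 0.000197). The inhibitor gene Pkia fell by 0.78 and the inhibitor gene Pkib rose 2.21-fold. Rapgef4, which encodes the cAMP-gated exchange factor EPAC2, rose to 63.6 ± 5.00 CPM with AVP, against 36.0 ± 3.75 CPM in controls (0.82, adjusted p = 7.12e-07), and Rapgef3 did not pass (0.15). Of 10 tested A-kinase anchoring protein genes, which encode scaffolds for the kinase, 6 rose, 1 fell and 3 did not pass (median 0.31), and those with the smallest p were Akap7, which fell by 1.21 on the log2 scale, and Akap13 and Akap1, which rose by 0.70 and 0.39.

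Of 10 genes for other CREB kinases and for phosphatases that act on CREB, 5 rose, 2 fell and 3 did not pass (median 0.10), and without AVP replicate 2 it was 3 higher and 2 lower. Ppp2ca, a catalytic subunit gene of phosphatase 2A, rose by 0.28 and Camk4, a calmodulin-dependent CREB kinase gene, by 0.51, while Rps6ka5, which encodes the CREB kinase MSK1, fell by 0.54.

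Known CREB target genes other than the 10 were 12 higher and 2 lower of 19 tested, with 5 not past the threshold and a median log2 fold change of 0.56, beside 28.7% higher and 28.8% lower among all tested genes. Leaving out AVP replicate 3 gave 11 higher and 5 lower, with Egr1, Nr4a2 and Cartpt called lower and Fosb no longer called. Without control replicate 1 it was 12 higher and 4 lower, with Egr1 and Pcsk1 called lower. Without control replicate 2 it was 11 higher and 3 lower, with Nr4a2 called lower and Fosb no longer called. Without AVP replicate 1 it was 13 higher and 2 lower, with Nr4a1 called higher. Many genes of this list also answer to other transcription factors. The list was chosen with earlier results of these data known, so nothing is read from its share beside that of all tested genes. The genes with the smallest p were Gadd45b, Id2 and Junb, which rose by 3.38, 2.23 and 1.73 on the log2 scale. The classic cAMP-responsive early genes were uneven: Nr4a3 rose to 23.4 ± 6.36 CPM with AVP, against 10.9 ± 0.545 CPM in controls (edgeR adjusted p = 9.21e-05), Fos rose by 0.56 and Per1 by 0.35, whereas Nr4a1 (0.16), Nr4a2 (-0.25) and Egr1 (-0.40) did not pass. Nfil3, a repressor of the bZIP class, fell by 0.62 and Bdnf by 0.39.

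**Figure D5:**
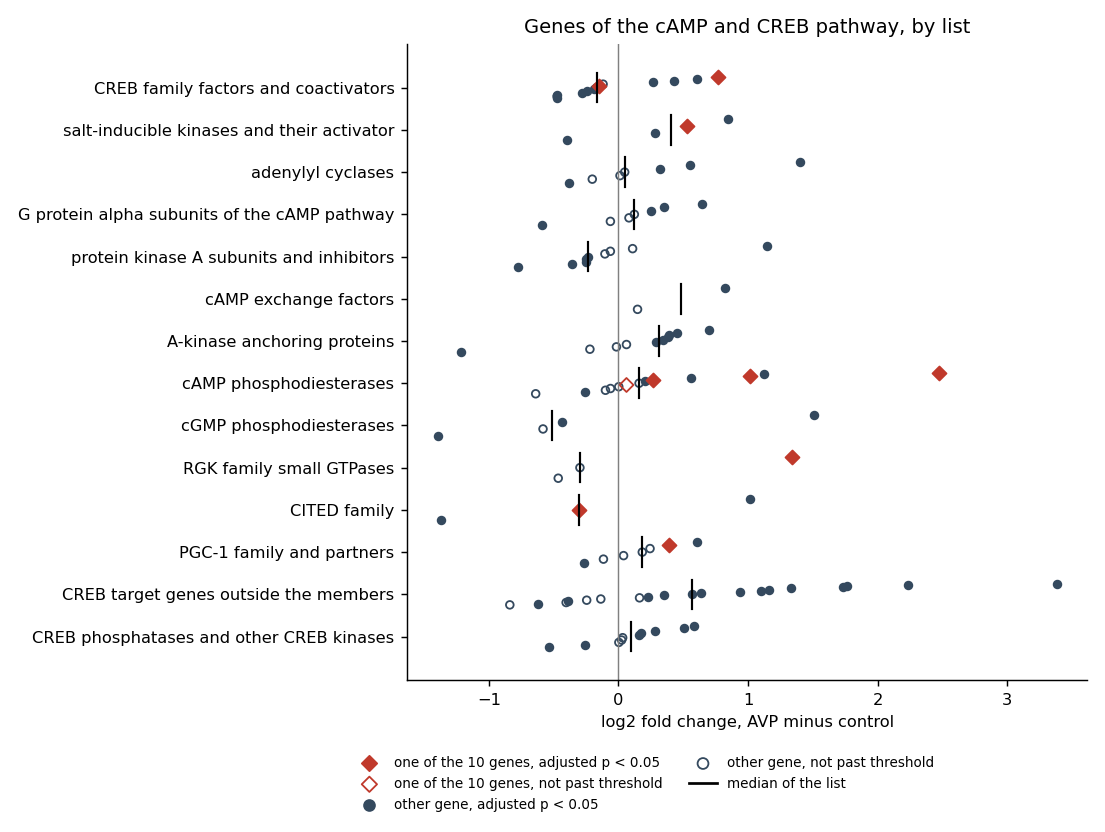
Log2 fold change, AVP minus control, of every tested gene in 14 lists of the cAMP and CREB pathway; diamonds are the 10 genes described here, circles are other genes, filled symbols passed the threshold and the line is the median of a list. The medians lie between -0.51 for cGMP phosphodiesterases and 0.56 for CREB targets, with genes on both sides of 0 in all lists but the cAMP exchange factors.

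Over all lists, 42 of 101 tested genes other than the 10 rose and 23 fell, with a median of 0.06. Among all tested genes 28.7% rose and 28.8% fell. As the lists were chosen with earlier results of these data known, nothing is read from this comparison. The direction of the 65 called genes was kept with RLE, upper-quartile and library-size scaling and with each library left out, and 10 of them lost the call in at least 1 of these settings: Crtc1, Nrf1, Pde1c, Crebzf, Rps6ka3, Adcy6, Camk2a, Fosb, Pde7a and Pkig.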

How the data were processed

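Total RNA of 6 GT1-7 cultures was extracted with TRIzol and its libraries read on an Illumina sequencer, as the labels' protocols state. The authors deposited, for each library, a table of whole-number counts by gene symbol. The genome builds mm10 and GRCm38 come from the submitters' processing notes; no source used here gives the aligner, counter, annotation or use of strand, so overlapping genes and near-identical copies are uncertain. The tables list 27 symbols turned into dates, kept as unnamed rows.

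Counts were fitted with edgeR 4.0.16 (limma 3.58.1, R 4.3.3): filterByExpr with a minimum count of 10, TMM factors, robust quasi-likelihood F test of AVP against control without covariates on all 6 libraries, Benjamini-Hochberg adjustment at 0.05. CPM values are TMM-scaled, except for markers and Malat1 (CPM of total counts). Standard errors were derived from the fold change and the F statistic, and log2 fold changes are AVP minus control. Merged exon lengths and positions are from GENCODE M21 (GRCm38), and promoter windows from RefSeq (GRCm38.p6).

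The 10 genes and all lists were chosen with earlier results of these data known. Named are the 10 genes and list genes past the threshold, with values for at least the 3 of smallest p in each list; list genes named although they did not pass were chosen after their values were seen. Alternatives were DESeq2 1.42.0, limma-voom, RLE, upper-quartile and library-size scaling, a filter at 1 count, a filter on means under 50 counts, robust estimation off, glmTreat at 1.2-fold, the replicate number as a block, Rn45s left out and each library left out. No 2 libraries of a group had the same counts within sampling noise (chi-square per degree of freedom 7.17 or more). The labels call the cultures biological replicates and say no more, so p-values measure the spread between these cultures. Depth was 34908867 to 37418318 counts, at which 3 counts are 0.0802 to 0.0859 CPM; such floors cover counting error only. Python 3.11.15 with pandas 2.3.3 and matplotlib 3.10.9 handled tables and figures.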

Additional observations from a re-analysis of the deposited data

How the results depend on the processing

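Of the 170 values of the 10 genes under 17 other settings, 156 kept their direction and side of the threshold, 14 lost the call and 0 reversed. Pde4a, Gem, Pde4b, Crem and Sik1 passed in all 17 settings, with log2 fold changes of 2.45 to 2.51, 1.28 to 1.40, 0.94 to 1.06, 0.70 to 0.81 and 0.41 to 0.61. Pde4d passed in none of them (0.04 to 0.10). Against a 1.2-fold change, a stricter question by construction, Creb1, Cited2, Ppargc1a and Pde10a lost the call; the count of the 10 genes was then 5 higher and 0 lower, that of all tested genes 2197 higher and 2332 lower, and that of list genes outside the 10 was 28 higher and 11 lower, beside 42 higher and 23 lower without that demand. The number of the 10 genes called lower was 1 with library size alone and 1 with the replicate block, where Creb1 missed the threshold (adjusted p = 0.0644), and 1 to 2 with a library left out. Correlations of same-numbered deviations from the group means were 0.0787, -0.0452 and 0.0384, and those of differently numbered libraries were -0.0874 to 0.053. No clear pairing by replicate number was thus seen over all genes. Pairing in single genes was not tested. The replicate block gave 3972 higher and 3969 lower genes in all, and it changed no other call among the 10. Leaving out a library gave 3525 to 4053 higher and 3592 to 4166 lower genes. The ratios between members moved by less than 1 SD with a pseudocount of 0.5. The cause of the lost calls was not tested. Low counts limit what can be said of Pde4c, Pde2a, Rem1 and the astrocyte and microglia markers.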
